A study of Homo sapiens with 5 samples.

Results

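The unedited SVG-10B1 cells are the wild-type arm of a series on an IDH1 substitution, and they were taken here on their own, as 2 of the 5 libraries of the series. SVG-10B1 is an established human astroglial cell line. Lines of the SVG family were derived from human fetal glial cultures that were immortalised with the early region of simian virus SV40, whose large T antigen binds the retinoblastoma protein. Both libraries, replicate 1 and replicate 2, came from total RNA of cells with the wild-type genotype, grown in serum-supplemented DMEM with no treatment named, and the line is labelled clone 1. They therefore describe a single line, and the labels do not say whether the replicates were separate cultures, so the spread between them may be technical. Genes were ranked by mean CPM, the reads of a gene per 1000000 reads of its library, over both libraries after the ribosomal RNA entries RNA28S5, RNA18S5, RNA5-8S5, MT-RNR1 and MT-RNR2 had been removed. These were 6 of 57905 entries with counts, which left 57899 ranked genes. With a single group there was no contrast, and no p-value is given.

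Astrocytes are the glial cells that take up glutamate and potassium around synapses and are joined by gap junctions. Their mature form is recognised by the filament protein GFAP, the calcium-binding protein S100B, the water channel AQP4, the glutamate transporters SLC1A2 and SLC1A3 and the folate enzyme ALDH1L1. Vimentin (VIM), connexin 43 (GJA1) and tenascin C (TNC), the markers that go with the astroglial label of the line, occur in immature and reactive astrocytes, but vimentin, connexin 43 and tenascin C are also made by fibroblasts and other mesenchymal cells. The label was therefore checked against both sets.

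The label markers were abundant and most defining genes of mature astrocytes were below 1 CPM. VIM stood at 624 CPM in replicate 1 and 705 CPM in replicate 2, GJA1 at 179 and 165 CPM, and TNC at 227 and 237 CPM. In contrast, GFAP had 9 and 7 reads, SLC1A2 had 5 and 7 reads and ALDH1L1 had 4 and 6 reads, all below 1 CPM. S100B and AQP4 had 0 reads in both libraries, where 3 reads, the limit that a count of 0 allows, correspond to 0.148 CPM in replicate 1 and 0.174 CPM in replicate 2. The remaining defining gene, SLC1A3, was above 1 CPM, at 8.62 CPM in replicate 1 and 8.14 CPM in replicate 2. In these libraries the data thus went against the astrocyte label for most defining genes but, at a cut of 1 CPM, not for SLC1A3. Its level was still modest, below the median of 28.4 CPM over all genes at 1 CPM or more in both libraries. The cells are called unedited SVG-10B1 cells below. In RNA from bulk cultures, fewer cells of a type and less RNA per cell cannot be told apart.

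The promoters of 2 label markers and of 2 genes of neural progenitor cells that had few or no reads are shown because these pairs lie at opposite ends of the abundance range. Each is the 250 bases before the RefSeq transcription start of the gene, the first listed where there were several, in build GRCh38.p14. It is given 5′ to 3′ on the strand of the gene, with CG dinucleotides in capitals. Whether these starts are the ones used in these cells was not tested. The VIM promoter lies at chr10:17227991-17228240 on the plus strand, the GJA1 promoter at chr6:121435396-121435645 on the plus strand, the promoter of nestin (NES) at chr1:156677408-156677657 on the minus strand and the SOX2 promoter at chr3:181711675-181711924 on the plus strand.
VIM: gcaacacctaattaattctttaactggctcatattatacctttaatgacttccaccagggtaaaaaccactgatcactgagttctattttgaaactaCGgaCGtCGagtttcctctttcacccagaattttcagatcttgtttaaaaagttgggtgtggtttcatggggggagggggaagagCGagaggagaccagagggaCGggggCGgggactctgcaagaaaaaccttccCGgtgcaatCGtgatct
GJA1: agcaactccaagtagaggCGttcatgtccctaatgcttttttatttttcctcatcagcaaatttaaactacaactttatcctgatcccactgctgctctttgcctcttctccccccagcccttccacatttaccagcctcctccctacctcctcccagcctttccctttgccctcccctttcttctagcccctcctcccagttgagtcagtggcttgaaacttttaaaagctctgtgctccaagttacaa
NES: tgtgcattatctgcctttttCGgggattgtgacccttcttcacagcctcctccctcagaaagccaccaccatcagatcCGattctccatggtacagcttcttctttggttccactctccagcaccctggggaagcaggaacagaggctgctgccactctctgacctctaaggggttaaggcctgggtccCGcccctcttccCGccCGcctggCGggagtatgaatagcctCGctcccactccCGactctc
SOX2: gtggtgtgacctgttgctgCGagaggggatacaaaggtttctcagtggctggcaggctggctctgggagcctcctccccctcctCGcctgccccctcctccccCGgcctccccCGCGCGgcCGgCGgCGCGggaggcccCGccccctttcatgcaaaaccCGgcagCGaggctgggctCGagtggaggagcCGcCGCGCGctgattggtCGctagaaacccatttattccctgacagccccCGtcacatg
The VIM promoter held 8 CG dinucleotides, the GJA1 promoter 1 and that of the third label marker, TNC, 12. The promoters of NES, with 6 and 3 reads, and SOX2, with 0 reads in both libraries, held 8 and 20. These 5 genes were picked, and the counts over all genes are given at the end.

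Reads assigned to genes came to 21881726 in replicate 1 and 17603317 in replicate 2. Ribosomal RNA entries took 7.23% of reads in replicate 1 and 2.24% in replicate 2, and the remaining 20299560 and 17209178 reads were the base of all CPM. The libraries correlated at r = 0.993 on log2 CPM across 13401 detected genes, which are not independent replicates. The median absolute log2 ratio between them was 0.12. Their counts differed by more than sampling noise, with 11.3% of 17912 genes at a chi-square p below 0.001, so the files were not copies of 1 library.

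A gene was called detected at 1 CPM or more in both libraries, which was about 20.3 reads in replicate 1 and 17.2 in replicate 2. By this rule 13401 of the 57899 ranked genes (23.1%) were detected, and 28534 genes (49.3%) had 0 reads in both. Of 19539 protein-coding genes, 11862 (60.7%) were detected, and this share is the background for the gene lists below. At least 10 CPM was reached in both libraries by 9506 genes, 100 CPM by 2176 and 1000 CPM by 56. The 10 highest genes took 10.0% of reads in each library and the 100 highest took 21.3%. It took 951 genes in replicate 1 and 931 in replicate 2 to reach 50% of the reads, and 5876 and 5815 to reach 90%.

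**Figure D1:**
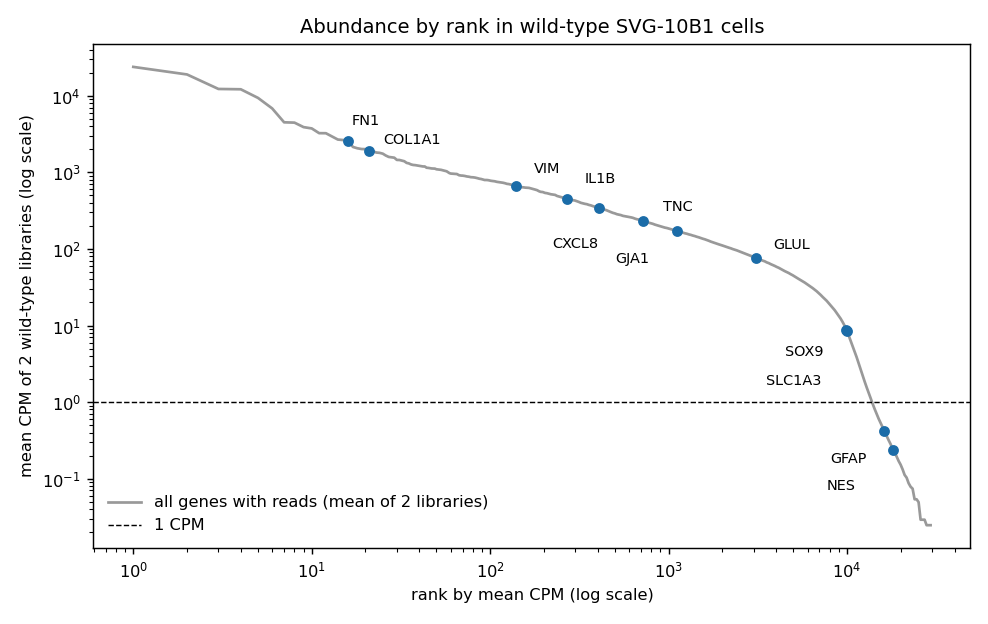
Mean CPM of the 2 wild-type libraries (log axis) against rank (log axis) for all genes with reads, with 12 genes of the text marked as points and the 1 CPM detection level dashed. FN1 and COL1A1 lie at ranks 16 and 21, VIM at rank 140 and IL1B at rank 270, while GFAP and NES lie below the dashed line.

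The 4 highest-ranked genes were noncoding RNAs of the signal recognition particle (RN7SL1 and RN7SL2), of transcription elongation control (RN7SK) and of mitochondrial RNA processing endoribonuclease (RMRP). RN7SL1 took 23465 CPM in replicate 1 and 24371 CPM in replicate 2, and RN7SL2 took 18690 and 19411 CPM. Both are near-identical copies, so the division of reads between them is uncertain. RPPH1, the RNA of ribonuclease P, and SNORD3A, a small nucleolar RNA that acts in ribosomal RNA processing, ranked 6 and 8. Small noncoding RNAs as a class took 6.21% and 6.18% of reads, long noncoding RNAs 2.93% and 2.85%, and protein-coding genes 90.3% and 90.5%. RMRP and RPPH1 are counted with the long class in the annotation used.

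The messenger RNAs that took the most reads, a rank that favours long transcripts, coded for translation, cytoskeleton, glycolysis and matrix. The translation elongation factor EEF1A1 ranked 5, at 9440 and 9372 CPM. The cytoplasmic actins ACTB and ACTG1 ranked 7 and 10, the actin crosslinker filamin A (FLNA) ranked 9 and the nonmuscle myosin heavy chain MYH9 ranked 18. The glycolytic enzymes ENO1, GAPDH and PKM ranked 13, 14 and 20, and the chaperones HSPA8 and HSP90AA1 ranked 11 and 15. Fibronectin (FN1) at rank 16 and the collagen chain COL1A1 at rank 21 were the matrix genes among the 25 highest, but per exon length (TPM, below) they ranked 172 and 128 among protein-coding genes. The remaining genes of the 25 were EEF2, RPL4, NPM1, GNB2L1, ANXA2, FTL and RPS6. Many of these have processed pseudogenes or close copies, and the sources used here do not say how reads that fit several copies were counted.

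CPM ranks give the share of reads and depend on transcript length. For levels of different genes, values were also computed as TPM, in which reads are divided by exon length and scaled to the same total over protein-coding genes in each library. On this scale the ferritin light chain FTL stood at 9043 and 10536 TPM, the actin-binding peptide TMSB10 at 9007 and 8140 TPM and EEF1A1 at 7597 and 7484 TPM. Replication-dependent histone genes, whose transcripts lack a poly(A) tail, were also near the top, with HIST1H1C at 6000 and 5197 TPM and HIST1H3B at 4645 and 4403 TPM. The median over all protein-coding genes was 7.67 TPM, and over those detected it was 30.7 TPM.

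Astroglial genes were detected unevenly by role. Of 35 listed astroglial genes, 20 were detected (57.1%, against 60.7% of protein-coding genes), with a median of 2.72 TPM against 7.67 TPM over all protein-coding genes. Detection was 2 of 9 for transporters and channels, 1 of 3 for filament and calcium-binding genes, 4 of 8 for metabolism, 7 of 8 for transcription factors and signalling regulators and 6 of 7 for secreted matrix genes.

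Among transporters and channels, GJA1 and SLC1A3 were the members detected. SLC1A3, the glial glutamate transporter of radial glia and cerebellar astrocytes, stood at 8.62 and 8.14 CPM. KCNJ10, the potassium channel of astrocyte endfeet, had 1 and 0 reads. MLC1 had 1 and 2 reads, its partner HEPACAM had 0 and 1, and connexin 30 (GJB6) had 0 in both. With AQP4, these members at or under 3 reads in both libraries serve water, ion and junction functions of mature astrocytes.

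Within the connexin family, GJA1 made up 81.4% of summed TPM (SD 0.33, n = 2), and connexin 45 (GJC1) made up 17.3% (SD 0.38, n = 2). The remaining 11 of 13 connexins were below detection. Per length GJA1 exceeded GJC1 by 4.79-fold in replicate 1 (95% interval 4.53 to 5.06, counting error only) and by 4.61-fold in replicate 2. Within the SLC1 family of glutamate and neutral amino acid transporters, the glutamine carrier SLC1A5 made up 90.8% of summed TPM (SD 0.61, n = 2), at 133 and 178 CPM. SLC1A3 made up 2.66% (SD 0.64, n = 2), and SLC1A5 exceeded it 29-fold and 41.2-fold per length. SLC1A2, which carries most glutamate uptake in the forebrain, made up 0.0274%.

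Among metabolic genes, glutamate dehydrogenase (GLUD1) stood at 161 and 160 CPM and glutamine synthetase (GLUL), the enzyme that turns glutamate into glutamine, at 78.1 and 74.7 CPM. Clusterin (CLU) stood at 36.1 and 40.1 CPM and NDRG2 at 9.70 and 7.90 CPM. Below detection were apolipoprotein E (APOE), the main lipid carrier made by astrocytes, with 11 and 9 reads, the brain aldolase ALDOC with 14 in each, angiotensinogen (AGT) with 1 and 0, and ALDH1L1. GLUD1 has a close copy, GLUD2, so its count is uncertain. The enzymes of glutamate and glutamine conversion were thus above the detection level while most transporters of glutamate uptake were low.

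The gliogenic transcription factors were present at low to moderate levels. NFIB stood at 72.1 and 55.0 CPM, NFIX at 35.3 and 31.0 CPM and NFIA at 5.32 and 3.60 CPM. These nuclear factor I proteins act in the onset of glial differentiation. SOX9, which specifies glial fate, stood at 8.77 CPM in both libraries, ZBTB20 at 5.86 and 6.33 CPM, FGFR3 at 7.24 and 4.71 CPM and LHX2 at 2.66 and 2.21 CPM. ID4 was below detection with 14 and 7 reads.

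Of the secreted matrix genes, THBS1 and SPARC took reads in the range of VIM. Thrombospondin 1 (THBS1), a synapse-promoting factor of immature astrocytes and also a fibroblast product, stood at 575 and 891 CPM and at 301 and 462 TPM. SPARC stood at 587 and 547 CPM and at 582 and 537 TPM. The brain proteoglycans were far lower per length, with CSPG5 at 6.27 and 3.60 TPM and BCAN at 3.68 and 1.96 TPM. The proteoglycan VCAN, which mesenchymal cells also make, was low too, at 2.83 and 2.61 TPM. SPARCL1, abundant in mature astrocytes, had 2 and 0 reads. The high members of this list were ones that mesenchymal cells also express, but VCAN, which they express as well, was not among them.

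**Figure D2:**
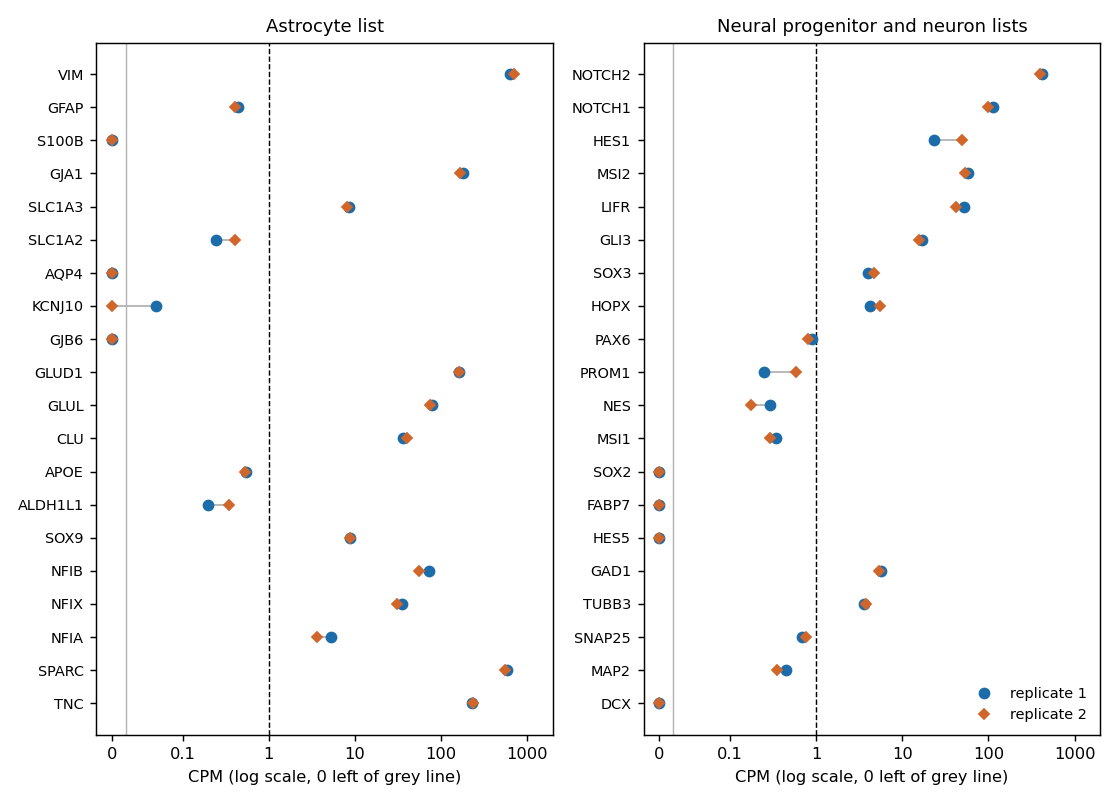
CPM (log axis, with 0 drawn left of the grey line) of 20 astroglial genes (left) and 20 neural progenitor and neuronal genes (right) in replicate 1 (blue circles) and replicate 2 (orange diamonds), with 1 CPM dashed. VIM, SPARC, TNC, GJA1, GLUD1 and NOTCH2 lie above 100 CPM in both libraries, while S100B, AQP4, GJB6, SOX2, FABP7, HES5 and DCX lie at 0.

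Of 42 neural genes, 11 were detected (26.2%, against 60.7% of protein-coding genes), and 16 had 0 reads in both libraries. The median was 0.18 TPM. Neural progenitor genes accounted for 8 of the 11. The Notch receptors NOTCH2 (422 and 392 CPM) and NOTCH1 (114 and 99.1 CPM) took the most reads of the list. The Notch target HES1 stood at 23.6 CPM in replicate 1 and 49.9 CPM in replicate 2, so it was higher in replicate 2. The RNA-binding protein MSI2 stood at 58.1 and 53.1 CPM and the Hedgehog effector GLI3 at 16.8 and 15.5 CPM. SOX3, a progenitor factor of the same family as SOX2, stood at 3.99 and 4.71 CPM, and the cytokine receptor LIFR and the homeodomain protein HOPX completed the 8. NOTCH2, NOTCH1, MSI2 and LIFR also occur in many cell types outside the nervous system.

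The genes that define neural stem cells were near or at 0. Nestin (NES), the filament protein of neural progenitors, had 6 and 3 reads, and PAX6 had 18 and 14. SOX2, SOX1, FABP7, HES5, PTPRZ1 and POU3F2 had 0 reads in both libraries. Per length VIM exceeded NES 2275-fold in replicate 1 (95% interval 1045 to 6201, counting error only) and 4360-fold in replicate 2 (1491 to 21144).

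Of 22 neuronal genes, 3 were detected (13.6%, against 60.7% of protein-coding genes), and 9 had 0 reads in both libraries. The glutamate decarboxylase GAD1, which makes the transmitter GABA, stood at 5.67 and 5.35 CPM, the neuronal tubulin TUBB3 at 3.65 and 3.84 CPM and the vesicle protein SYP at 2.71 and 2.15 CPM. TUBB3 made up 0.0139% of the summed TPM of the listed actin, tubulin and thymosin genes, while TUBB made up 8.13%. DCX, STMN2, NEFL, NEFM and ELAVL4 had 0 reads in both libraries. Below detection but with reads were SNAP25 (14 and 13), MAP2 (9 and 6), SYT1 (7 and 4) and RBFOX3 (5 and 2). No ionotropic or metabotropic glutamate receptor of 13 listed reached detection, and the one with the most reads, the kainate receptor GRIK2, had 19 and 15.

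Mesenchymal genes were detected more often than the background share. Of 69, 59 were detected (85.5%, against 60.7% of protein-coding genes), with a median of 77.1 TPM against 7.67 TPM over all protein-coding genes. By role, 11 of 12 collagens, 14 of 19 matrix genes, 12 of 15 surface and adhesion genes, 10 of 11 contractile genes and 12 of 12 regulators were detected. Together the 69 genes took 2.54% of reads in replicate 1 and 2.44% in replicate 2, against 0.264% and 0.296% for the 35 astroglial genes. These sums cover lists of unlike size and favour long transcripts. The 11 contractile genes alone, FLNA and MYH9 among them, took 0.862% and 0.888%. Per length the medians of the mesenchymal and astroglial lists were 77.1 and 2.72 TPM. Many mesenchymal members, such as FLNA, MYH9, ACTN1, ITGB1 and CAV1, also occur in cultured cells of other types, and CD44 and CDH2 also in astrocytes. The contrast between the lists therefore does not by itself give the cell type.

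**Figure D3:**
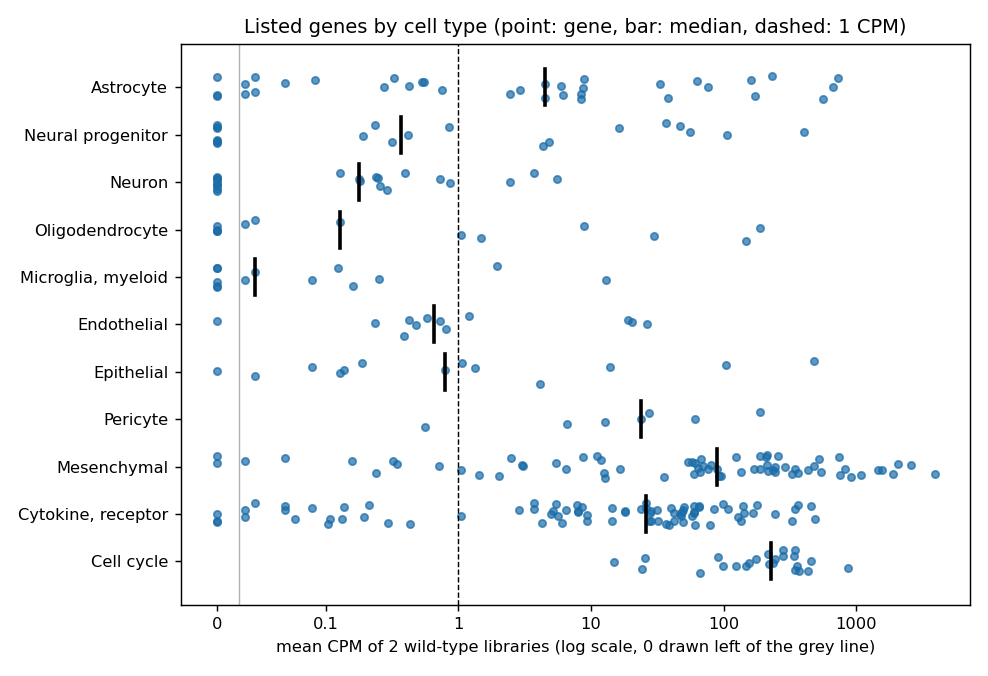
Mean CPM over 2 wild-type libraries (log axis, with 0 drawn left of the grey line) of each listed gene (points) in 11 lists, with the list median as a black bar and 1 CPM dashed; vertical scatter within a row has no meaning. The medians of the pericyte, mesenchymal, cytokine and cell cycle lists lie above 10 CPM, that of the astrocyte list at 4.46 CPM and those of the other 6 lists below 1 CPM.

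Collagen chains were abundant but unevenly so. COL1A1, a chain of fibrillar collagen I, stood at 2019 and 1786 CPM, and COL5A2, a chain of collagen V, which controls fibril diameter, at 1717 and 1429 CPM. Per length COL5A2 made up 30.5% of the summed TPM of the 12 listed chains (SD 0.28, n = 2) and COL1A1 28.1% (SD 0.95, n = 2). This order is the reverse of that by reads and depends on the exon lengths used, which the SDs do not cover. The chains of basement membrane collagen IV were next in reads, with COL4A1 at 916 and 739 CPM and COL4A2 at 812 and 673 CPM.

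Chains that assemble with one another were not always present at like levels. COL1A2, which joins the COL1A1 product in the collagen I heterotrimer, had 6 reads in each library, and COL1A1 exceeded it 7762-fold per length in replicate 1 (95% interval 3566 to 21152) and 5820-fold in replicate 2 (2674 to 15861), counting error only. COL6A1 and COL6A2 stood at 472 and 389 CPM and at 267 and 223 CPM, while COL6A3, which joins them in collagen VI, stood at 2.86 and 1.16 CPM. COL6A1 exceeded COL6A3 607-fold and 1231-fold per length, and COL6A3 itself differed 2.46-fold between the libraries. The head-to-head pair COL4A1 and COL4A2 differed 1.48-fold and 1.44-fold per length but only 1.13-fold and 1.10-fold by reads. COL5A2 exceeded COL5A1 6.82-fold and 6.93-fold per length and 4.54-fold and 4.61-fold by reads. Ratios per length depend on the exon lengths used, so the small difference within the COL4A1 and COL4A2 pair is uncertain.

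Among other matrix genes, fibronectin (FN1), which forms the fibrils that cells pull on, stood at 2812 and 2413 CPM. TGFBI stood at 1482 and 1432 CPM, fibrillin 1 (FBN1) at 553 and 501 CPM, and the crosslinking enzyme LOXL2 at 323 and 259 CPM. The small leucine-rich proteoglycans that mark many connective tissue fibroblasts were at or near 0, with 0 reads in both libraries for DCN, 1 and 0 for LUM and 2 and 0 for BGN. POSTN had 4 and 2 reads and the collagenase MMP1 7 and 6. The list thus held genes at ranks 16 and 30 beside genes with no read.

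Per length, contractile genes were led by FLNA at 1728 and 1792 TPM, MYH9 at 1084 and 1105 TPM and the tropomyosin TPM2 at 727 and 683 TPM. The actin crosslinker ACTN1 stood at 397 and 419.9 TPM and the tropomyosin TPM1 at 282 and 281 TPM. By reads, however, TPM1 exceeded TPM2 1.54-fold and 1.63-fold, so their order depends on the exon lengths used. Calponin 2 (CNN2) stood at 257 and 300.2 TPM and transgelin (TAGLN) at 247 and 214 TPM. Other genes used as markers of smooth muscle were low, unlike TAGLN, which is also such a marker. Smooth muscle actin (ACTA2) stood at 1.48 and 1.39 CPM, CNN1 at 9.31 and 8.19 CPM, and the myosin light chain MYL9 had 0 reads. Per length ACTB exceeded ACTA2 2437-fold and 2895-fold.

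Most surface genes used to recognise mesenchymal stromal cells were present. Integrin beta 1 (ITGB1), a receptor chain for fibronectin and collagen, stood at 1121 and 1070 CPM, and the hyaluronan receptor CD44 at 324 and 337 CPM. N-cadherin (CDH2) stood at 261 and 251 CPM, whereas CDH11, a cadherin of fibroblasts, had 5 and 4 reads. The stromal antigens THY1 (90.5 and 102 CPM) and NT5E (68.6 and 70.5 CPM) differed little between the libraries, as did caveolin (CAV1) at 350 and 378 CPM. The stromal antigen endoglin (ENG) stood at 18.8 and 14.4 CPM. The aminopeptidase ANPEP, at 0.887 and 1.22 CPM, and S100A4, at 0.788 and 0.639 CPM, were below detection.

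The regulators of the epithelial to mesenchymal transition were all above detection. The repressors of E-cadherin ZEB2 and ZEB1 stood at 73.4 and 78.0 CPM and at 36.0 and 35.1 CPM. TWIST1 stood at 11.4 and 12.6 CPM, SNAI2 at 10.8 and 14.6 CPM and SNAI1 at 2.51 and 3.66 CPM. YAP1, the Hippo pathway coactivator, stood at 145 and 127 CPM. Pericyte genes were detected for 6 of 7 members (85.7%, against 60.7% of protein-coding genes). CSPG4 stood at 191 and 184 CPM, PDGFRB at 67.4 and 55.3 CPM and RGS5 at 6.995 and 6.16 CPM.

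The intermediate filament genes, which are used to tell cell classes apart, held both abundant members and members near 0. VIM made up 27.2% of the summed TPM of 17 listed genes (SD 1.64, n = 2), and the simple epithelial keratin KRT7 25.02% (SD 1.21, n = 2). These shares differed by less than 2 SD of either. KRT7 stood at 492 and 477 CPM and KRT18 at 106 and 103 CPM. KRT8, the usual partner of KRT18 in filaments, stood at 4.53 and 3.72 CPM, and KRT18 exceeded it 49.9-fold and 59.0-fold per length. KRT8 and KRT18 have many pseudogenes, so both counts are uncertain. GFAP made up 0.00742%, and VIM exceeded it 3305-fold per length in replicate 1 (95% interval 1740 to 7229) and 4071-fold in replicate 2 (1975 to 10128).

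**Figure D4:**
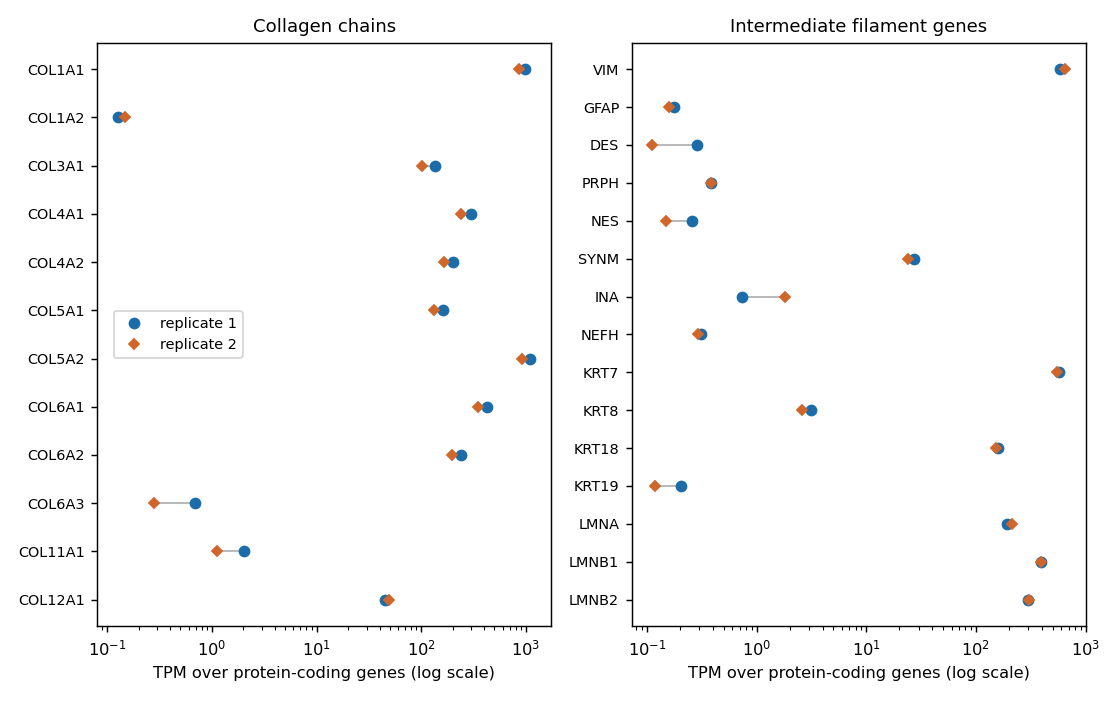
TPM over protein-coding genes (log axis) of 12 collagen chains (left) and 15 intermediate filament genes (right) in replicate 1 (blue circles) and replicate 2 (orange diamonds). COL1A2 and COL6A3 lie below 1 TPM while COL1A1 and COL6A1 lie above 300 TPM, and VIM and KRT7 lie together near the top of the filament genes.

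Markers of other cell classes were mostly low. Detection was 30.8% for epithelial, 33.3% for endothelial and 15.4% for microglial and myeloid genes, against 60.7% of protein-coding genes. Besides KRT7, KRT18, KRT8 and occludin (OCLN, 13.4 and 14.4 CPM), the remaining 9 of 13 epithelial genes were below detection, and E-cadherin (CDH1) had 4 and 1 reads, EPCAM 4 and 3 and GRHL2 none. Of 12 measured endothelial genes 4 were detected, among them the angiopoietin receptor TEK (21.2 and 16.6 CPM), TIE1 (20.6 and 20.0 CPM) and EGFL7 (28.3 and 24.6 CPM), while CDH5 had 6 and 3 reads. The PECAM1 entry was empty in the files. Of 13 microglial and myeloid genes 2 were detected, HCLS1 at 13.2 and 12.8 CPM and CSF1R at 2.36 and 1.57 CPM. PTPRC had 1 and 0 reads, and SPI1, ITGAM, CX3CR1, TMEM119 and TYROBP had 0.

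Among 13 oligodendrocyte genes 6 were detected (46.2%, against 60.7% of protein-coding genes). CSPG4 and CNP (146 and 147 CPM) were highest, also per length, and both also occur outside the lineage. The lineage factors OLIG1 and OLIG2 had 0 reads, SOX10 had 4 and 1, and the myelin genes MOG and MAG had 0. MYRF, a regulator of myelin genes, stood at 34.2 and 25.4 CPM and MBP at 10.0 and 7.73 CPM.

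Cytokine, chemokine, growth factor and receptor genes were detected in 64 of 82 cases (78.0%, against 60.7% of protein-coding genes), with a median of 20.8 TPM. Interleukins and chemokines act as inflammatory messengers, and astrocytes and fibroblasts both make them when stimulated. By role, 8 of 15 chemokines, 11 of 17 interleukins and colony-stimulating factors, 20 of 24 growth factors and 25 of 26 receptors were detected.

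The neutrophil chemokines CXCL8 and CXCL1 were the highest chemokines, per length as well as by reads. CXCL8, listed under its older symbol IL8, stood at 346 and 343 CPM, CXCL1 at 210 and 149 CPM and CXCL6 at 47.2 and 29.9 CPM. CXCL2 stood at 12.1 and 23.8 CPM and the monocyte chemokine CCL2 at 18.6 and 17.6 CPM. CXCL1, CXCL2 and CXCL3 are close copies, so their counts carry some uncertainty. Lymphocyte chemokines were near 0, with 2 and 5 reads for CXCL10, 0 and 2 for CCL5 and 0 in both for CX3CL1.

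Interleukin 1 beta (IL1B), a cytokine best known from myeloid cells, was the highest interleukin, at 492 and 416 CPM and at 761 and 639 TPM. Of the 13 myeloid genes above, 11 were below detection. Among these is CD68, with only 14.2% of its exon bases free of other genes, so its low count is uncertain. Per length IL1B exceeded IL1A 7.20-fold in replicate 1 (95% interval 6.74 to 7.70) and 7.65-fold in replicate 2 (7.05 to 8.30), counting error only. The interleukin 6 family followed, with LIF at 91.7 and 125 CPM, IL11 at 76.0 and 53.6 CPM and IL6 at 36.6 and 61.4 CPM. CSF3, the granulocyte growth factor, stood at 66.8 and 32.2 CPM. TNF, in contrast, had 2 reads in each library. MIF had 3 and 2 reads, but only 38.1% of its exon bases lie free of other genes in the annotation used, so its low count is uncertain.

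Genes around interleukin 1 were taken from a list added after the values had been seen. The receptor chains IL1R1 (30.001 and 21.8 CPM) and IL1RAP (28.3 and 19.6 CPM) were detected, and the antagonist IL1RN had 0 reads. The processing protease CASP1 stood at 15.1 and 11.6 CPM, its adaptor PYCARD at 4.98 and 5.52 CPM, the sensor NLRP3 at 5.62 and 5.99 CPM and the pore-former GSDMD at 57.9 and 56.3 CPM. Of the 16 genes, 14 were detected (87.5%, against 60.7% of protein-coding genes). All 17 listed NF-kB genes were detected, with the inhibitor NFKBIA at 197 and 178 CPM and the adhesion targets ICAM1 at 199 and 165 CPM and VCAM1 at 138 and 104 CPM.

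Among growth factors, FGF2, a mitogen of glia and fibroblasts, stood at 337 and 322 CPM and the BMP antagonist GREM1 at 304 and 426 CPM. PDGFC, a ligand of PDGF receptors, stood at 97.7 and 99.0 CPM. TGFB2 stood at 52.3 and 62.4 CPM and TGFB1 at 51.8 and 44.9 CPM. The angiogenic factor VEGFA stood at 30.1 and 25.04 CPM. HGF, a growth factor of stromal cells, had 0 reads.

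Of receptors, the shared signalling chain of the interleukin 6 family, IL6ST, stood at 533 and 444 CPM, EGFR at 249 and 239 CPM, TGFBR1 at 203 and 131 CPM and OSMR at 167 and 112 CPM. The ligand-specific chain IL6R stood at 4.53 and 4.01 CPM, and IL6ST exceeded it 81.6-fold and 76.9-fold per length. The chemokine receptor CXCR4 had 0 reads. PDGFRB exceeded PDGFRA, the receptor of oligodendrocyte progenitors, 88.8-fold and 72.1-fold per length.

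**Figure D5:**
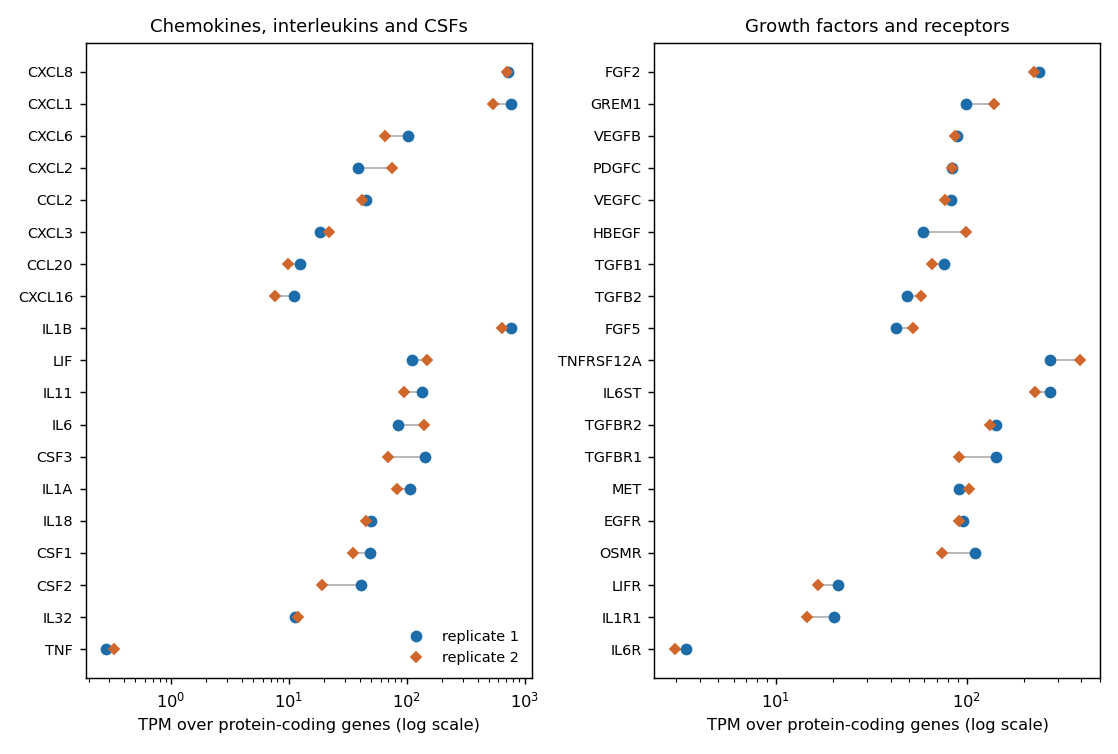
TPM over protein-coding genes (log axis) of 19 chemokine, interleukin and colony-stimulating factor genes (left) and 19 growth factor and receptor genes (right) in replicate 1 (blue circles) and replicate 2 (orange diamonds). CXCL8, CXCL1 and IL1B lie above 500 TPM in both libraries and TNF below 1 TPM, and CSF3 and CSF2 lie higher in replicate 1 while IL6 and CXCL2 lie higher in replicate 2.

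Genes of regional identity gave a mixed set at low level. HOX genes mark the trunk and hindbrain and are silent in forebrain. Of 39 HOX genes, 10 were detected (25.6%, against 60.7% of protein-coding genes) and 17 had 0 reads in both libraries. Those detected were led by HOXB7 (9.51 and 7.15 CPM), HOXB13 (8.18 and 6.57 CPM) and HOXC8 (5.37 and 5.87 CPM), and no HOXD gene had more than 1 read. Of the 29 undetected HOX genes, 5 have less than 50% of their exon bases free of other genes in the annotation used, among them HOXD1, HOXD3 and HOXD4 (41.9, 25.9 and 19.5%), so these low counts are uncertain. Of 14 forebrain and midbrain factors, 6 were detected (42.9%), with DLX1 at 17.4 and 15.7 CPM and OTX2 at 7.14 and 5.00 CPM. EMX1, EMX2, SIX3, NKX2-1 and EN1 had 0 reads in both libraries.

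All 24 proliferation genes and all 16 listed genes of cell cycle inhibition and damage response were detected, against 60.7% of protein-coding genes. The DNA topoisomerase TOP2A stood at 906 and 821 CPM, MCM4 of the replicative helicase at 467 and 449 CPM, CCNB1 at 412 and 452 CPM and MKI67 at 399 and 342 CPM. The ubiquitin ligase MDM2 stood at 333 and 239 CPM and the kinase inhibitor CDKN1A at 135 and 111 CPM. RB1, which encodes the retinoblastoma protein, stood at 160 and 143 CPM and CDKN2A, which encodes p16 and ARF, at 117 and 122 CPM. Transcripts of the viral T antigen are not analysed here.

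Glycolytic genes were detected in 17 of 18 cases (94.4%, against 60.7% of protein-coding genes), with a median of 433.9 TPM. ENO1 stood at 3034 and 2863 CPM, GAPDH at 2839 and 2540 CPM and the lactate dehydrogenases LDHB at 1381 and 1475 CPM and LDHA at 1338 and 966 CPM. Per length LDHA was 0.465 of LDHB in replicate 1 and 0.315 in replicate 2, while by reads it was 0.968 and 0.655 of LDHB. The ratio per length depends on the exon lengths used, 6210 bases for LDHA and 2983 for LDHB, and is uncertain. The ubiquitous aldolase ALDOA exceeded the brain form ALDOC 1043-fold and 785-fold per length. The 13 mitochondrial messenger RNAs were all detected and took 0.245% and 0.301% of reads, with MT-CO3 highest at 958 and 1156 CPM, also per length.

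The libraries were not interchangeable for every gene. Of the 13401 detected genes, 594 (4.43%) differed more than 1.5-fold between them, 366 higher in replicate 1 and 228 higher in replicate 2. Among the 405 detected genes of the lists, 37 did so. The largest gap was in the immediate early factor FOS, at 30.4 CPM in replicate 1 and 173 CPM in replicate 2, a 5.70-fold difference. GADD45A (49.1 and 117 CPM), the YAP targets CYR61 (134 and 302 CPM) and CTGF (139 and 285 CPM), HES1, CXCL2, MYC (44.2 and 81.5 CPM), IL6 and JUN (198 and 322 CPM) were also higher in replicate 2. Higher in replicate 1 were the receptor NOTCH3 (34.1 and 13.2 CPM), CSF3, CSF2, the collagen crosslinker LOX (87.0 and 44.9 CPM), ENO2 (97.9 and 53.6 CPM) and PGK1. The share of ribosomal RNA also differed between the libraries, and its part in these differences was not tested.

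Across all genes, promoter CG content was higher in detected than in undetected genes, as a description with genes not independent of one another. Promoters in the RefSeq table were matched to 14082 of 19392 protein-coding genes with a single symbol. CG dinucleotides were counted in the 250 bases before the first listed start of each gene, as above. The median count was 4 in genes with 0 reads in both libraries and 22 in genes at 100 CPM or more. At least 10 CG were found in 28.5% of genes with 0 reads, 47.2% of other genes below detection, 76.6% of genes from 1 to 10 CPM, 88.5% from 10 to 100 CPM and 91.7% from 100 CPM, against 69.5% of all. Of 23 undetected neural genes with a matched promoter, 14 held 10 CG or more, SOX2 among them, and of 18 undetected HOX genes 15 did. GJA1, with 1 CG, was among the detected genes of low CG content, and IL1B also held 1.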

How the data were processed

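Total RNA of the wild-type cells was sequenced on an Illumina HiSeq in 2 libraries, per the labels' protocols. The deposited values are raw counts per gene, as whole numbers, which the authors made with Trimmomatic, STAR and HTSeq on hg19 (GRCh37), per the submitters' processing notes. The sources used here do not give the annotation release, the strand setting or the handling of reads with several matches. Each file listed 63677 genes, of which 5772 had no value, and 0 entries lacked a gene name. RNA45S5, which the ranking rule also names, matched no entry. CPM were computed on totals without ribosomal RNA entries. TPM used the union of exons in GENCODE 29 (GRCh38), matched by identifier for 52336 genes and by symbol for 844, over protein-coding genes. Such unions include rare transcripts, which lowers the TPM of genes such as GFAP. Intervals are exact 95% intervals and, like the floor of 3 reads, cover counting error only.

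The genes named were the 25 highest by mean CPM, VIM, GJA1, TNC and the astrocyte-defining genes, and from each list up to 6 highest members and those it is known for. Others were named after their values had been seen. The members and lists were chosen with earlier results of these data known, and 10 lists, among them the interleukin 1, NF-kB, glutamate receptor, laminin, integrin and viral host lists, were added after the values were seen. Of 610 listed genes, 609 had counts. The counting steps were tested on simulated data. Alternatives were other detection levels, TPM, totals with ribosomal RNA, TMM scaling (edgeR 4.0.16), size factors (DESeq2 1.42.0) and each library alone, in R 4.3.3 and Python 3.11.15. The edited clones were left out, and some listed genes are not reported here.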

Additional observations from a re-analysis of the deposited data

How the results depend on the processing

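Leaving out 1 of 2 libraries cannot move a gene level by its SD, so the 24 such values are not counted here. Of the other 86 alternatives to 18 counts, shares and levels, 75 moved the value by less than the spread between the libraries or, for counts, by less than 1.5 times, and 11 moved it further. The number of detected genes was 23656 at 1 read or more in both libraries against 13401 at 1 CPM. It was 13722 in replicate 2 alone and 13794 in replicate 1 alone. The neural list had 7 of 42 members at 5 CPM and 26 at 1 read, against 11. The share of the 100 highest genes was 21.2679% and differed by 0.00225 (SD) between the libraries, so small shifts exceeded it. It was 20.3% on totals with ribosomal RNA, 22.7% of TPM when ranked by TPM, 21.2803% without mitochondrially encoded genes, and 21.2812 to 21.3051% when 1 library was left out. Of 36 changes of scaling for the levels of 12 genes, 3 moved the level by more than the spread, all on totals with ribosomal RNA (TNC 221 CPM, SLC1A3 7.98 CPM and CXCL8 328 CPM). No paired analysis was possible because the wild-type libraries form 1 group and no contrast was made. Depth limits statements on genes below about 20.3 and 17.2 reads, and for a gene with 0 reads the floor of 3 reads, a one-sided 95% limit, is 0.148 and 0.174 CPM.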

Other observations

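The following lists were added after the values had been seen and are given as values only. Their counts stand beside the 60.7% of protein-coding genes that were detected. The laminins, the trimers of basement membranes, were detected for all 11 listed chains. LAMC1 stood at 895 and 760 CPM and made up 47.2% of their summed TPM (SD 0.44, n = 2), LAMB1 stood at 268 and 250 CPM and LAMB3, a chain of epithelial laminin, at 191 and 165 CPM. The alpha chains were lower, led by LAMA5 at 114 and 70.0 CPM. Of 18 integrins 14 were detected, and ITGB1 made up 52.7% of summed TPM (SD 0.37, n = 2), ahead of ITGA3 with 11.5%. Of 22 genes of collagen folding, hydroxylation and crosslinking 19 were detected, with P4HB at 441 and 403 CPM, PLOD2 at 444 and 345 CPM and the collagen chaperone SERPINH1 at 387 and 367 CPM. All 22 ribosomal protein genes were detected and took 2.47% and 2.46% of reads.

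SVG cells are a common host for JC virus. Of 15 genes named in work on its entry and transcription, 11 were detected (73.3%, against 60.7% of protein-coding genes). The serotonin receptors described as entry receptors were below detection, with 0 reads for HTR2A, 16 and 11 for HTR2B and 1 and 0 for HTR2C. The transcription factor NFIX stood at 35.3 and 31.0 CPM and YBX1 at 906 and 912 CPM. Of 21 nucleic acid sensing and interferon genes 17 were detected (81.0%). The sensor cGAS, listed as MB21D1, stood at 26.7 and 29.4 CPM and STING, listed as TMEM173, at 19.9 and 16.7 CPM, while IFNB1 had 1 and 0 reads. Of 14 oncofetal and immortalisation genes 8 were detected (57.1%). The telomerase RNA TERC stood at 85.4 and 81.1 CPM, although only 19% of its bases lie free of other genes, and the protein subunit TERT had 13 and 8 reads. HMGA1 stood at 250.3 and 286 CPM, HMGA2 at 68.5 and 80.9 CPM and IGF2BP1 at 97.9 and 92.0 CPM. Within the S100 family, S100A6 made up 40.5% of summed TPM (SD 1.45, n = 2) and S100A11 26.2% (SD 0.36, n = 2), beside 0 reads for S100B.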
